A study of Mus musculus with 24 samples.

Results

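The genes described here code for the proteasome, its assembly factors and its activators. They were chosen by name: every gene whose only symbol in the array's probe table begins with Psma, Psmb, Psmc, Psmd, Psme, Psmf or Psmg followed by a digit. The rule found 49 genes among 18193 with a single symbol, and each was represented by its brightest probe set, the one with the highest mean over the 24 arrays. Of these 49, 47 passed the filter on dim probe sets and were tested. Psma8, a testis form of an alpha subunit, and Psmb11, the subunit of the thymic cortex, stayed dim and were not tested: their highest log2 signals on any array were 6.57 and 6.03. A further pair, Psmc3ip and Psme3ip1, match the naming rule but code for a recombination cofactor and for a protein that binds Psme3, so 45 tested genes belong to the proteasome itself. Psme2, the partner of Psme1, shares its probe set with a second symbol and was not a member by the rule; its values are given apart.

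The arrays measured total RNA of splenic B cells of C57BL/6 mice, 6 to 8 weeks old, on Affymetrix expression arrays, with 1 array per sample. Control cells (WT) and cells lacking NFATc1 (KO) were kept with an antibody against IgM, which crosslinks the B cell receptor, for 0, 3, 8 or 16 h, and B cells were then enriched with magnetic beads. In KO mice exon 3 of Nfatc1 is flanked by loxP sites and cut out by a Cre recombinase under control of the B cell gene Cd79a (mb-1). The 8 groups of genotype and time hold 3 biological replicates each. The labels do not say whether the control mice carry the Cre or the loxP alleles, nor whether arrays with the same replicate number at different times share a mouse, so p-values measure the spread between these samples.

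As background, the proteasome is the large protease that breaks down proteins tagged with ubiquitin. Its core, the 20S particle, is a barrel of alpha rings around beta rings, and its catalytic beta subunits are Psmb5, Psmb6 and Psmb7. Cells of the immune system replace these with Psmb8, Psmb9 and Psmb10 respectively, which makes the immunoproteasome, known for supplying peptides to MHC class I molecules. The 19S particle caps the core: its Psmc ATPases unfold the substrate and its Psmd subunits bind and remove ubiquitin.

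The stretches before the transcription start of 5 members are shown here as examples of both directions: the immune subunits Psmb8 and Psmb9, which fell, their constitutive counterparts Psmb5 and Psmb6, which rose, and Psme3, the member with the largest rise at 3 h. Psmb10 and Psmb7 are not shown. They are from RefSeq on GRCm38.p6, run from 5′ to 3′ along the gene's own strand, and end at the base before the start. Psmb9 and the peptide transporter gene Tap1 lie head to head, and 225 bases separate their starts, so the stretch shown for Psmb9 is the whole interval at chr17:34187331-34187555 (minus strand for Psmb9). Psmb8 follows Tap1 in the same block of the MHC region, at chr17:34198075-34198194 (plus strand). Psmb5 is at chr14:54617996-54618115 (minus strand), Psmb6 at chr11:70525237-70525356 (plus strand) and Psme3 at chr11:101316093-101316212 (plus strand). Capitals mark matches to any of 5 motifs searched on both strands: the gamma-activated sequence TTCNNNGAA in Psmb8, the antioxidant response element core TGACNNNGC in Psmb5 and Psmb6, the E-box CACGTG in Psme3, and the NF-Y box CCAAT, read on the opposite strand, in Psmb9 and Psme3.
Psmb9: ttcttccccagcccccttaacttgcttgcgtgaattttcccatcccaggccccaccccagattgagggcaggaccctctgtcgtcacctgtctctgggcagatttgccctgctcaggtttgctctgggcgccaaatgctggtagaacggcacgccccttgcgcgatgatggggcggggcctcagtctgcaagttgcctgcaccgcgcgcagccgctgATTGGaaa
Psmb8: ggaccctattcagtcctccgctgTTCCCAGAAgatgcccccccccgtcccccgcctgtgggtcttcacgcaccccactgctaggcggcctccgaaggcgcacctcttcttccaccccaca
Psmb5: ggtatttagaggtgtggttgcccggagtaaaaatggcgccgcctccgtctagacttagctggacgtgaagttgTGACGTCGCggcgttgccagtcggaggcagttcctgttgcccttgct
Psmb6: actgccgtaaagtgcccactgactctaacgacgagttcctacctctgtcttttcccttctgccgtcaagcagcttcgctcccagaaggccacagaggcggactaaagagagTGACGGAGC
Psme3: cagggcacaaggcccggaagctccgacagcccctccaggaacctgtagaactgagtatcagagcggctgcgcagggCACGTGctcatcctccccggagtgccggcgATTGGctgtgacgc

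Over windows of 300 bases, from 250 before to 50 after the start, 41 of the 49 members had a sequence. The antioxidant response element core, the letters read by the NFE2L factors, stood in the windows of 6 of the 41 members (14.6%): Psmb5, Psmb6, Psmc6, Psmd9, Psmd12 and Psme4. Among all 27025 genes with a window the share was 14%. The interferon-stimulated response element, searched as TTTC, 2 free bases and TTTC again, stood in 5 (12.2%), namely Psmb3, Psmd4, Psmd9, Psme1 and Psmg4, against 3.99% of all genes and in neither of the windows of Psmb8 and Psmb9. Psmb10 had none in the window of its annotated start, and whether that is its main start was not checked. The gamma-activated sequence stood in Psmb8, Psmd2 and Psmg1 (7.32% against 9.55%). The E-box stood in 5 members (12.2% against 8.09%) and the NF-Y box in 16 (39.0% against 41.1%). No matches of different motifs overlapped. These are matches of letters, and binding was not measured.

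The deposited log2 signals had nearly the same trimmed mean on every array, and array medians lay between 6.22 and 6.98. The 4 arrays of WT replicate 2 had high Y-linked and low Xist signals, as in male mice, and the other 20 did not. Over the 5 probe sets of Nfatc1 the KO group mean was below the WT mean in 3 of 20 pairs at the same time. For the brightest, KO was at 12.16, 13.82, 13.17 and 12.53 at 0, 3, 8 and 16 h and WT at 11.92, 13.22, 12.45 and 11.87. The sources used here do not place these probe sets inside or outside exon 3, so they do not check the deletion. Summed linear signals of 6 B cell markers were 30374 to 104693 on the WT arrays and 35291 to 106669 on the KO arrays. Those of the T cell markers were 213 to 646 over all arrays, with 3 to 5 of 6 below the level of the dim-signal filter on average in each group.

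Within hours of receptor crosslinking nearly the whole proteasome rose, while the 3 immune subunits fell. In WT cells 33 of the 47 tested members were higher and 4 lower (Psmb8, Psmb9, Psmb10 and Psme1) at 3 h than at 0 h (limma, Benjamini-Hochberg adjusted p under 0.05 over 14318 genes; so for every call below). Of all genes 38.3% were called at 3 h, 17% higher and 21.3% lower. At 8 h 43 members were higher and the 3 immune subunits lower, where 33.4% of all genes were called, 17.7% higher and 15.7% lower. At 16 h 42 were higher and 3 lower, where 39.4% of all genes were called, 20.9% higher and 18.5% lower. The median log2 difference over the 47 members was 0.58, 0.96 and 1.28 at 3, 8 and 16 h, beside -0.14, -0.04 and 0.05 over all genes. KO cells gave 31 higher and 3 lower at 3 h, 40 and 3 at 8 h, and 41 and 3 at 16 h, with medians of 0.51, 0.94 and 1.14. Of all genes 38.3%, 31.7% and 35.9% were called in KO cells at these times, 16.6%, 17.3% and 19.4% higher and 21.7%, 14.4% and 16.4% lower. These are signals per RNA of a bulk sample, in which fewer cells of a type and less RNA per cell cannot be told apart. Without the 4 male-type arrays the WT counts of called members were 29, 38 and 43 in place of 37, 46 and 45.

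**Figure D1:**
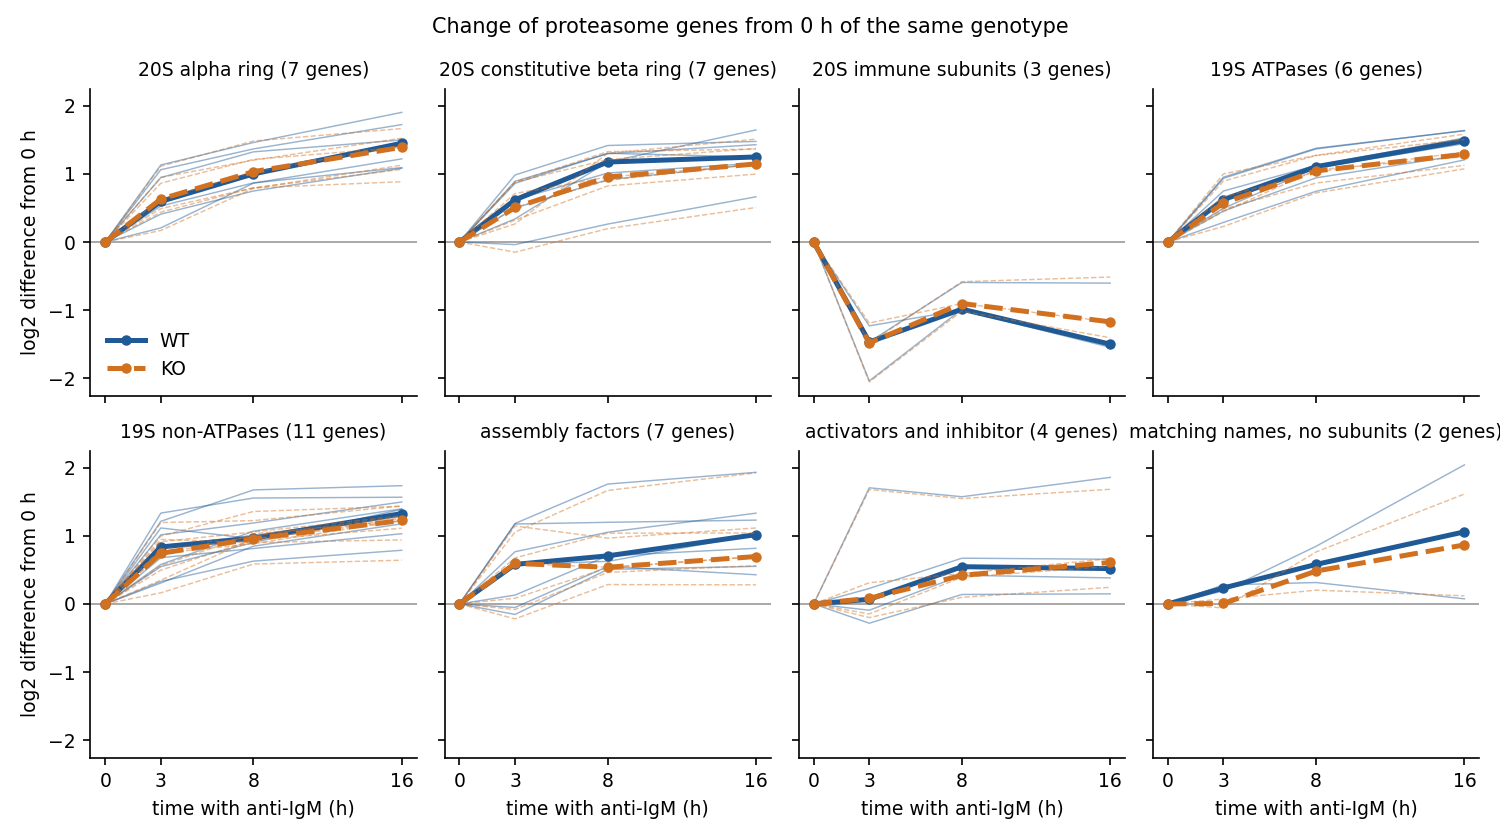
Log2 difference from 0 h of the same genotype against time with anti-IgM (h), by role; thin lines are single genes, thick lines with points the median of the panel, WT solid and KO dashed. Medians of the alpha ring, the constitutive beta ring, both 19S classes and the assembly factors climb through 16 h in WT, and the 3 immune subunits are lowest at 3 h by median in KO and below 0 throughout in both genotypes.

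The alpha ring, whose subunits form the gate of the barrel, rose as a whole: 7 of 7 tested members were higher at 8 and at 16 h in both genotypes, and 6 of 7 at 3 h. Psma5 rose furthest in this ring. Its log2 signals in WT were 12.14, 12.25 and 12.16 at 0 h, 13.30, 13.22 and 13.42 at 3 h, 13.70, 13.60 and 13.62 at 8 h, and 14.18, 14.10 and 13.96 at 16 h. No array of one time overlapped with those of another, and each step was upward. The change at 16 h was 1.90 (SE 0.0925, 3.73-fold, adjusted p = 2.95e-13), and in KO it was 1.66 (3.17-fold, adjusted p = 4.65e-12). Psma7 rose by 1.72 in WT and 1.52 in KO at 16 h. Psma1 was the slow member. Its change in WT was 0.21 at 3 h (adjusted p = 0.0958) and then 0.86 and 1.22 at 8 and 16 h, both called. A dimmer probe set listed for Psma1 gave the opposite, -0.80 in WT and -0.49 in KO at 16 h (both called among all probe sets).

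The constitutive beta ring followed. In WT 6, 7 and 7 of its 7 tested members were higher at 3, 8 and 16 h, and in KO 5, 6 and 7. Leaving out any of 6 single arrays ended the KO call of Psmb3 at 3 h (0.27), and any of 4 that of Psmb2 (0.71). With quantile normalization the former was 0.17 (adjusted p = 0.195). The WT change of Psmb1 at 8 h (0.26) did not pass with quantile normalization (0.17, adjusted p = 0.129) or without the male-type arrays (0.18, adjusted p = 0.275). Psmb3, a structural subunit, rose furthest at 16 h, by 1.64 in WT and 1.51 in KO. Psmb1, also structural, was the exception at 3 h. Its WT log2 signals were 12.40, 12.23 and 12.40 at 0 h and 12.41, 12.20 and 12.31 at 3 h, which overlap fully. By 16 h they were 12.98, 13.01 and 13.03, all above the earlier arrays, a change of 0.66 in WT and 0.51 in KO.

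Of the 3 catalytic subunits of this ring, Psmb5 and Psmb6 were higher at every stimulated time in both genotypes. Psmb5, the chymotrypsin-like protease, was at 10.98, 10.99 and 11.21 in WT at 0 h, 12.03, 11.85 and 11.97 at 3 h, 12.37, 12.40 and 12.29 at 8 h, and 12.47, 12.55 and 12.44 at 16 h. In KO it was at 11.25, 11.06 and 11.02, then 12.02, 11.85 and 12.10, then 12.43, 12.00 and 12.52, and last 12.54, 12.26 and 12.65. Every stimulated array lay above every array at 0 h in both genotypes, and the WT changes were 0.89, 1.29 and 1.43. Psmb6, the caspase-like protease, was at 11.39, 11.07 and 11.50 in WT at 0 h, 12.38, 12.18 and 12.34 at 3 h, 12.60, 12.85 and 12.74 at 8 h, and 12.69, 12.82 and 12.87 at 16 h. In KO the values were 11.39, 11.24 and 11.62, then 12.33, 12.18 and 12.39, then 12.76, 12.50 and 12.97, and last 12.84, 12.53 and 12.97. Its arrays at 3 h were again all above those at 0 h, and its changes at 16 h were 1.48 in WT and 1.36 in KO. Psmb7, the trypsin-like protease, was at 12.40, 12.03 and 12.04 in WT at 0 h, 12.85, 12.95 and 12.54 at 3 h, 13.34, 13.20 and 12.97 at 8 h, and 13.49, 13.54 and 12.92 at 16 h. In KO it was at 12.48, 12.29 and 12.38, then 12.92, 12.84 and 12.36, then 13.43, 12.98 and 13.21, and last 13.47, 13.19 and 13.49. The WT arrays at 3 h were all above those at 0 h, whereas the KO groups overlap there. Its WT changes were 0.62, 1.01 and 1.16, the first of which did not pass without the male-type arrays (0.47, adjusted p = 0.113). In KO its change at 3 h was 0.32, which did not pass, and at 16 h 1.00, which did.

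The immune counterparts of these proteases fell in both genotypes at every stimulated time. Psmb9, which takes the place of Psmb6, fell furthest. Its log2 signals in WT were 11.68, 11.68 and 11.74 at 0 h, 9.91, 9.67 and 9.40 at 3 h, 11.25, 9.98 and 10.91 at 8 h, and 9.89, 10.10 and 10.61 at 16 h. In KO they were 11.72, 11.80 and 11.89, then 9.64, 9.93 and 9.67, then 11.24, 10.25 and 10.87, and last 10.37, 10.35 and 10.47. All stimulated arrays lay below all arrays at 0 h, and the arrays at 8 h were above those at 3 h and spread widely. The change at 3 h was -2.04 in WT (SE 0.244, 4.10-fold lower, adjusted p = 3.32e-07) and -2.05 in KO (4.15-fold lower, adjusted p = 3.03e-07). At 8 and 16 h it was -0.98 and -1.50 in WT, and -1.01 and -1.40 in KO. The return between 3 and 8 h passed in both genotypes, by 1.05 in WT (adjusted p = 0.00444) and 1.04 in KO (adjusted p = 0.00385).

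Psmb8, which takes the place of Psmb5, dipped and partly came back. In WT it was at 12.78, 12.63 and 12.73 at 0 h, 11.54, 11.24 and 10.96 at 3 h, 12.47, 11.78 and 12.11 at 8 h, and 12.05, 12.27 and 12.01 at 16 h. In KO it was at 12.98, 12.75 and 12.81, then 11.37, 11.56 and 11.17, then 12.59, 11.96 and 12.25, and last 12.41, 12.29 and 12.29. The groups at 3 h were the lowest and overlapped with no other time of their genotype. The changes were -1.47, -0.59 and -0.60 in WT and -1.48, -0.58 and -0.51 in KO at 3, 8 and 16 h. The rise from 3 to 8 h was 0.87 in WT (adjusted p = 8.41e-04) and 0.90 in KO (adjusted p = 4.71e-04). The fall at 8 h rested on single arrays: without replicate 2 at 8 h it was -0.42 in WT (adjusted p = 0.0684) and -0.43 in KO (adjusted p = 0.0697). The KO fall at 16 h did so too: without KO replicate 1 at 0 h it was -0.45 (adjusted p = 0.0728). Scaled to a common array median, the fall of Psmb8 did not pass at 8 or 16 h in either genotype (-0.44 and -0.51 in WT, -0.54 and -0.52 in KO, adjusted p = 0.106 to 0.200), and that of Psmb9 in WT at 8 h was -0.83 (adjusted p = 0.0545). Without the male-type arrays the WT changes at 8 h were -0.46 for Psmb8 (adjusted p = 0.0979) and -0.63 for Psmb9 (adjusted p = 0.0827).

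Psmb10, which takes the place of Psmb7, stayed low. Its WT log2 signals were 11.53, 11.44 and 11.73 at 0 h, 10.50, 10.12 and 10.39 at 3 h, 10.82, 10.18 and 10.71 at 8 h, and 10.06, 9.95 and 10.06 at 16 h. In KO they were 11.49, 11.34 and 11.72, then 10.35, 10.24 and 10.40, then 10.96, 10.10 and 10.78, and last 10.40, 10.03 and 10.61. No stimulated array reached an array at 0 h. The changes were -1.23, -0.997 and -1.54 in WT and -1.19, -0.90 and -1.17 in KO. From 3 to 8 h its rise, 0.23 in WT and 0.29 in KO, did not pass (adjusted p = 0.503 and 0.351).

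Set against the constitutive subunit of the same ring position, each immune subunit lost ground in both genotypes at each time. The change from 0 h of Psmb9 minus that of Psmb6, averaged over both genotypes, was -2.98, -2.37 and -2.87 on the log2 scale at 3, 8 and 16 h. For Psmb8 minus Psmb5 it was -2.36, -1.84 and -1.96. For Psmb10 minus Psmb7 it was -1.68, -1.87 and -2.43, so this pair drew apart further with time while the others were widest at 3 h. These are differences between changes of different probe sets and say nothing about which subunit is more abundant. An exact permutation test of each of the 9, two-sided and with arrays rearranged within their genotype, gave p = 0.005, the smallest that 400 arrangements allow (0.005 after Benjamini-Hochberg adjustment over the 9). The pairs were set against each other after the values were seen, and the adjustment does not correct for that choice. These p-values are thus no support beyond the differences themselves.

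**Figure D2:**
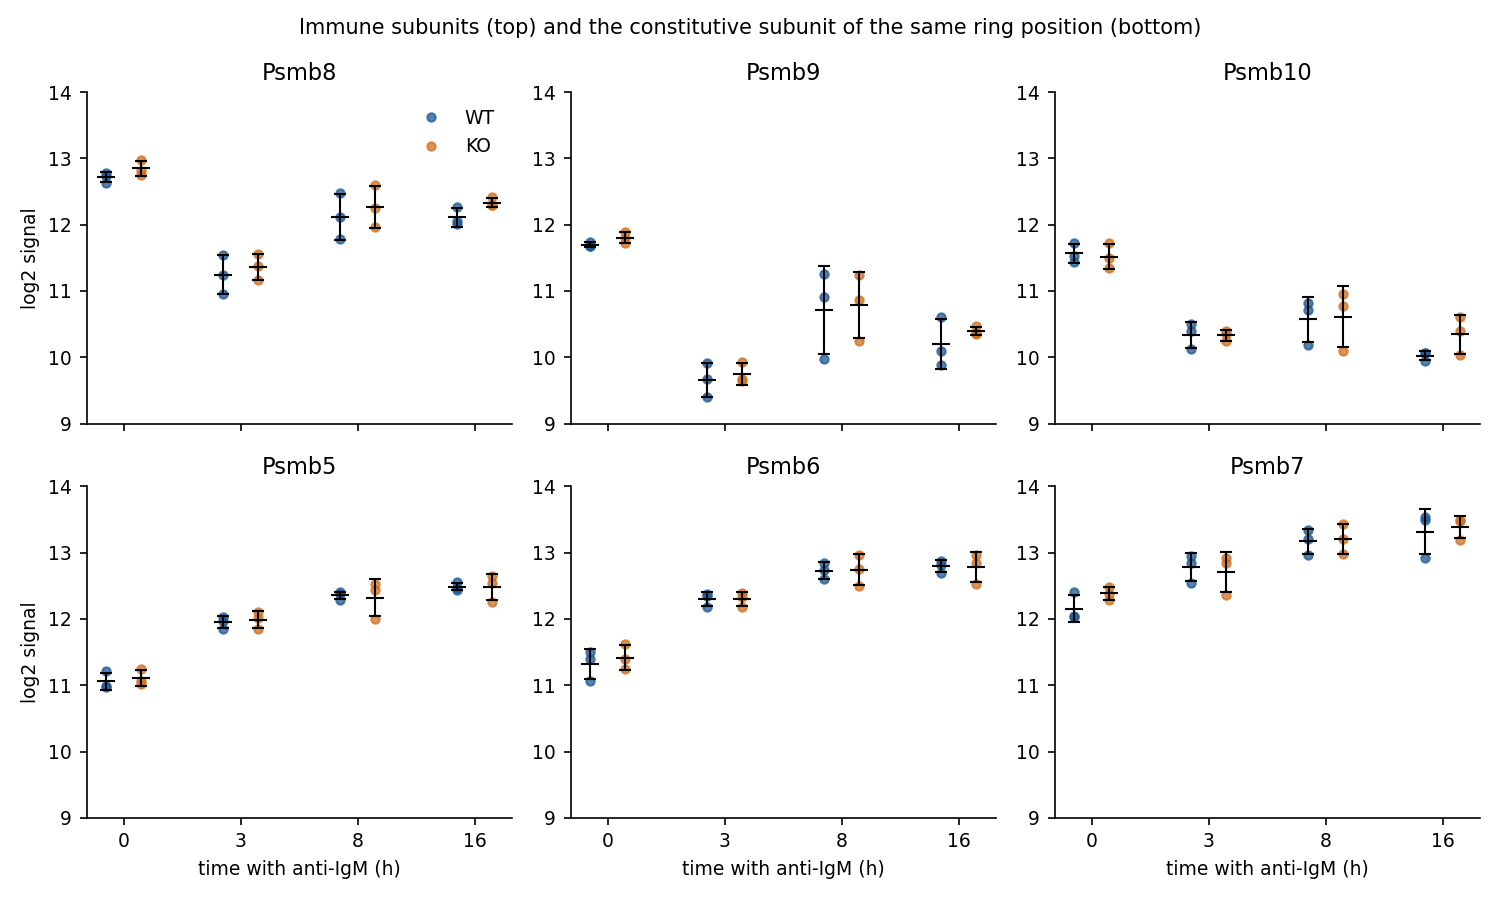
Log2 signal of every array against time with anti-IgM (h) for Psmb8, Psmb9 and Psmb10 (top) and Psmb5, Psmb6 and Psmb7 (bottom); dots are arrays, the horizontal tick is the mean and the bar 1 SD of 3 arrays, WT blue and KO orange. Top panels drop by 1.19 to 2.05 at 3 h and stay below 0 h, bottom panels rise, and WT and KO dots lie close together at each time.

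Levels of cell type markers moved over the same times. The 6 tested B cell markers were all lower at 16 h in WT (median -1.45) and KO (median -1.56). Their summed linear signals fell from 91710 to 104693 on the WT arrays at 0 h to 30374 to 36489 at 16 h. Of the NK cell markers 3 of 4 were lower at 16 h in WT and 2 of 4 in KO, with sums of 452 to 1060 at 0 h and 183 to 259 at 16 h in WT. Of the neutrophil markers 3 of 6 were lower at 16 h in WT and 2 of 6 in KO. Their sums were 2786 to 4070 at 0 h and 980 to 1147 at 16 h in WT. In KO the sums were 777 to 5087 and 595 to 4340, and the median change at 16 h was 0.17. Of the macrophage and monocyte markers 1 of 7 was lower and 1 higher at 16 h in WT, and none lower and 1 higher in KO. The part of these in the fall of Psmb8, Psmb9 and Psmb10 was not tested. Dendritic cell markers summed to 260 to 840 over all arrays and plasma cell markers to 13328 to 31676. The erythroid list had 1 of 3 markers above the filter.

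The 6 ATPases of the 19S base were higher at 8 and 16 h in both genotypes, and at 3 h 5 of 6 in WT and 6 of 6 in KO. The KO calls of Psmc6 (0.23, adjusted p = 0.0494) and Psmc1 (0.48, adjusted p = 0.0481) at 3 h passed narrowly: leaving out any of 21 and 13 single arrays of the 24 ended them, as did scaling to a common median. Without KO replicate 3 at 3 h the change of Psmc6 was 0.16 (adjusted p = 0.234), and that of Psmc1 0.40 (adjusted p = 0.163). Their median change at 16 h was 1.48 in WT and 1.29 in KO. Psmc5 rose by 0.95, 1.38 and 1.63 in WT, the last with adjusted p = 6.57e-12. Its WT log2 signals were 11.01, 10.74 and 10.70 at 0 h and 12.44, 12.39 and 12.51 at 16 h, far apart and tight at 16 h. Psmc6 was slower, at 0.29 after 3 h and 1.20 after 16 h in WT, and the former did not pass with quantile normalization (0.18, adjusted p = 0.110) or without the male-type arrays (0.26, adjusted p = 0.106). Psmc4 had the widest spread. Its brightest probe set gave 11.85, 12.58 and 11.20 in WT at 0 h and 13.18, 13.94 and 13.41 at 16 h, a change of 1.64 (SE 0.324), and replicate 2 was its highest array in all 8 groups. A dimmer probe set of Psmc4 showed no such spread: 11.08, 10.95 and 10.92 at 0 h and 12.32, 12.40 and 12.30 at 16 h.

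Of the 11 non-ATPase subunits, which hold the lid and the ubiquitin-binding parts, 10 were higher in WT at 3 h and 11 at 8 and 16 h, and in KO 9, 11 and 11. Leaving out any of 11 single arrays ended the WT call of Psmd2 at 3 h (0.58). That change also did not pass with quantile normalization (0.51, adjusted p = 0.0853) or without the male-type arrays (0.59, adjusted p = 0.115). Psmd7, the partner of the deubiquitinase in the lid, rose early. In WT it went from 10.20, 10.18 and 10.33 at 0 h to 11.53, 11.56 and 11.62 at 3 h and to 11.86, 11.81 and 11.73 at 16 h. Most of the rise was thus in place by 3 h, with changes of 1.33, 1.55 and 1.56. Psmd1, a scaffold of the base, went from 10.84, 10.57 and 10.92 to 11.87, 12.04 and 12.05 at 3 h and 12.39, 12.54 and 12.60 at 16 h in WT (1.21 and 1.73). In KO it went from 10.92, 10.98 and 11.05 to 12.00, 11.83 and 12.12 and to 12.42, 12.20 and 12.63 (1.00 and 1.43). Psmd14, the lid's deubiquitinase, was slow: 12.41, 12.32 and 12.33 at 0 h, 12.83, 12.60 and 12.55 at 3 h and 13.65, 13.55 and 13.39 at 16 h in WT, a change of 0.31 and then 1.18. The former did not pass with quantile normalization (0.20, adjusted p = 0.0787) or without the male-type arrays (0.32, adjusted p = 0.0621). Psmd4, a ubiquitin receptor, changed least in this class, by 0.79 in WT and 0.64 in KO at 16 h. Scaled to a common median its KO changes did not pass at 8 h (0.62, adjusted p = 0.0688) or 16 h (0.64, adjusted p = 0.0552). Psmd11 changed by 1.11 in WT and 0.95 in KO at 3 h, and by 1.29 and 0.94 at 16 h.

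The assembly factors split into early and late genes. Psmg1 and Psmg2 form one chaperone of the alpha ring, and both rose at 3 h. Psmg1 was at 9.84, 9.57 and 9.87 in WT at 0 h, 11.18, 11.00 and 10.62 at 3 h, 11.73, 11.48 and 11.33 at 8 h, and 11.79, 11.76 and 11.51 at 16 h. In KO at 16 h it was at 11.85, 11.65 and 11.77, from 9.75, 9.97 and 9.79. The groups at 0 h lay apart from all others, and the change at 16 h was 1.93 in WT (SE 0.144, 3.81-fold, adjusted p = 1.54e-10) and 1.92 in KO (3.79-fold, adjusted p = 3.30e-10), the largest rise of any proteasome gene in either genotype. Psmg2 was at 10.49, 10.20 and 10.84 at 0 h and 11.72, 11.64 and 11.69 at 3 h in WT, and its change hardly moved afterwards (1.17, 1.20 and 1.23). Psmg3 and Psmg4 form another alpha ring chaperone. Psmg3 rose by 0.77 in WT at 3 h, whereas the change of Psmg4 was 0.13, which did not pass, and 0.70 and 0.82 later, which did.

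Psmd5, Psmd9 and Psmd10 are chaperones of the 19S base. Psmd9 was higher at all times in both genotypes, by 1.02 in WT and 0.69 in KO at 16 h. The WT call at 16 h held under every alternative, but the others did not. Without the male-type arrays its WT changes were 0.44 at 3 h (adjusted p = 0.158) and 0.59 at 8 h (adjusted p = 0.0654). Scaled to a common median its KO changes were 0.58 at 8 h (adjusted p = 0.148) and 0.69 at 16 h (adjusted p = 0.0668), and without KO replicate 3 at 3 h the one at 3 h was 0.47 (adjusted p = 0.0820). Psmd10 was at 10.10, 9.67 and 10.18 in WT at 0 h and 10.40, 10.38 and 10.46 at 16 h, a change of 0.43 that passed narrowly (adjusted p = 0.0427). It was 0.29 without the male-type arrays (adjusted p = 0.322) and 0.52 scaled to a common median (adjusted p = 0.160). Psmd5 was at 10.57, 10.60 and 10.66 in WT at 0 h, 10.63, 10.28 and 10.45 at 3 h and 11.03, 11.19 and 11.25 at 16 h (0.55, called). In KO it was at 10.63, 10.43 and 10.71 and then 10.90, 10.80 and 10.91 at 16 h, a change of 0.28 that did not pass.

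The activators, which open the core without the 19S particle, did not move as one. Psme3, which forms the nuclear activator, made the largest early rise of all members. Its WT log2 signals were 9.89, 9.89 and 9.74 at 0 h, 11.67, 11.65 and 11.30 at 3 h, 11.40, 11.50 and 11.33 at 8 h, and 11.81, 11.78 and 11.49 at 16 h. In KO they were 9.83, 9.84 and 9.92, then 11.59, 11.63 and 11.40, then 11.52, 11.34 and 11.36, and last 11.63, 11.43 and 11.58. The level was reached by 3 h, and the later groups overlap with it. The change at 3 h was 1.70 in WT (SE 0.114, 3.25-fold, adjusted p = 4.70e-11) and 1.68 in KO (3.20-fold, adjusted p = 6.31e-11).

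Psme1, a subunit of the interferon-inducible cytosolic activator, changed little in WT. It was at 12.79, 12.57 and 12.51 at 0 h, 12.52, 12.34 and 12.16 at 3 h, 12.84, 12.70 and 12.74 at 8 h and 12.59, 12.78 and 12.94 at 16 h. The groups overlap with that at 0 h at every time, and the fall at 3 h, -0.28, passed only just (adjusted p = 0.0490); leaving out any of 17 of the 24 arrays ended that call, as did scaling to a common median (-0.04). In KO it was at 12.55, 12.60 and 12.48 at 0 h, 12.37, 12.47 and 12.35 at 3 h, 13.06, 13.00 and 12.75 at 8 h and 13.14, 13.01 and 13.13 at 16 h. The arrays at 8 and 16 h were above all those at 0 h, by 0.39 (adjusted p = 0.00831) and 0.55 (adjusted p = 3.30e-04). Without KO replicate 1 at 8 h the former was 0.33 (adjusted p = 0.0536). It also did not pass with quantile normalization (0.27, adjusted p = 0.051) or scaled to a common median (0.43, adjusted p = 0.13). The probe set shared by Psme2 and Psme2b had means of 13.16 ± 0.105, 13.00 ± 0.190, 13.66 ± 0.185 and 14.11 ± 0.209 in WT (SD, n = 3) and of 13.15 ± 0.223, 12.83 ± 0.103, 13.53 ± 0.215 and 13.95 ± 0.199 in KO, higher at 16 h than at 0 h in both; it was not in the fit.

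Psme4, the other nuclear activator, rose by 0.42 and 0.38 in WT at 8 and 16 h, and in KO its changes of 0.10 and 0.24 did not pass. Without the male-type arrays neither WT call held: the change at 8 h was 0.39 (adjusted p = 0.0820) and the later one 0.33 (adjusted p = 0.130). The former also ended without WT replicate 3 at 8 h (0.32, adjusted p = 0.0741), and the latter without WT replicate 2 at 16 h (0.33, adjusted p = 0.0773), with quantile normalization (0.29, adjusted p = 0.0820) and scaled to a common median (0.47, adjusted p = 0.0533). Its probe sets disagreed: at 16 h in WT a dimmer one fell by 1.02, while another rose by 0.60. Psmf1, which binds the core and inhibits it in vitro, was at 9.47, 9.52 and 9.48 in WT at 0 h and 9.95, 10.40 and 10.13 at 8 h. Its change was 0.67 at 8 h in WT and 0.45 in KO, both called, and 0.66 and 0.67 at 16 h. The KO call at 8 h ended without KO replicate 1 at 0 h (0.29, adjusted p = 0.185) or at 8 h (0.40, adjusted p = 0.0897), with only the groups compared (adjusted p = 0.0807) and scaled to a common median.

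Of the other pair of matching names, Psmc3ip, a cofactor of homologous recombination in meiosis, rose late. In WT it was at 8.20, 7.96 and 7.56 at 0 h, 8.13, 8.29 and 7.87 at 3 h and 9.98, 10.35 and 9.51 at 16 h. Nothing passed at 3 h (0.19), and the change at 16 h was 2.04 in WT and 1.61 in KO. Psme3ip1 changed by 0.28 and 0.31 in WT at 3 and 8 h, both called, and by 0.07 at 16 h, which was not; any of 18 single arrays ended the call at 3 h.

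The pace differed between members. Of the 40 members that were higher at 16 h in both genotypes, the median had made 55.4% of its 16 h change by 3 h in WT and 55.2% in KO. Psmg2 (95.4% in WT), Psme3 (91.8%), Psmd11 (86.6%) and Psmd7 (85.1%) were nearly complete at 3 h. Psmb3 (20.6%), Psma1 (17%) and Psmg4 (15.9%) had barely begun, and Psmb1 (-5.69%) and Psmd10 (-12.2%) lay slightly below 0 h. KO gave 103% for Psmg2, 99.8% for Psme3, 17.6% for Psmb3 and 15% for Psma1.

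Between successive times the movement was upward wherever it passed. From 3 to 8 h 26 members were higher and none lower in WT (15.9% of all genes were called, 10.3% higher), and 25 higher in KO (19.2% of all genes called, 13.2% higher). From 8 to 16 h 12 were higher in WT (7.75% of all genes called, 3.83% higher) and 4 in KO (4.66% called, 2.4% higher). The alpha ring and the ATPases held 4 and 3 of the 12 in WT. No fall passed. The changes of the immune subunits from 8 to 16 h were -0.01 for Psmb8, -0.51 for Psmb9 and -0.55 for Psmb10 in WT (adjusted p = 0.987, 0.241 and 0.0826); the latter pair had unadjusted p under 0.05, and for Psmb10 every WT array at 16 h lay below every one at 8 h. These counts were the least steady of all: scaled to a common array median they were 2 and 2 from 3 to 8 h, and 1 and 0 from 8 to 16 h.

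The genotypes were then compared directly. No member differed between KO and WT at 0, 3, 8 or 16 h or on average over the times (limma, 0 of 47 each). Of all genes 0.0349%, 0.0559%, 0.0978%, 0.615% and 1.21% were called in these 5 comparisons. At an unadjusted p under 0.05 there were 0, 0, 2, 2 and 2 of the 47 members. Of all 14318 genes there were 500, 531, 777, 1013 and 1382 at that threshold, so the members do not stand out. The limma F-test of genotype by time called none of the 47, beside 0.0140% of all genes. At an unadjusted p under 0.05 this F-test gave 0 of the 47, beside 401 of all 14318 genes. The differences at 16 h ran from -0.44 to 0.33, and their 95% intervals reached down to -0.93 and up to 0.72. The median half-width of these intervals, which are not adjusted for the number of genes, was 0.26 on the log2 scale. A call needs more than that, so larger differences could also go uncalled.

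For Psme1 at 16 h all 3 KO arrays (13.14, 13.01 and 13.13) were above all 3 WT arrays (12.59, 12.78 and 12.94), a difference of 0.33 (95% interval 0.09 to 0.56, 1.25-fold) with adjusted p = 0.350. Psmd5 was lower in KO on all arrays at 16 h, by -0.29 (interval -0.54 to -0.04, adjusted p = 0.581), and by -0.16 on average over the times (interval -0.28 to -0.03, adjusted p = 0.343). The 3 immune subunits had KO minus WT differences of 0.22 (Psmb8), 0.20 (Psmb9) and 0.32 (Psmb10) at 16 h, none of which passed (adjusted p = 0.980, 0.997 and 0.877). Of the other 42 proteasome genes 33 were below 0 at 16 h, with a median of -0.09, beside 0.01 over all genes. These signs come from the same 6 arrays and were not tested as a list.

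**Figure D3:**
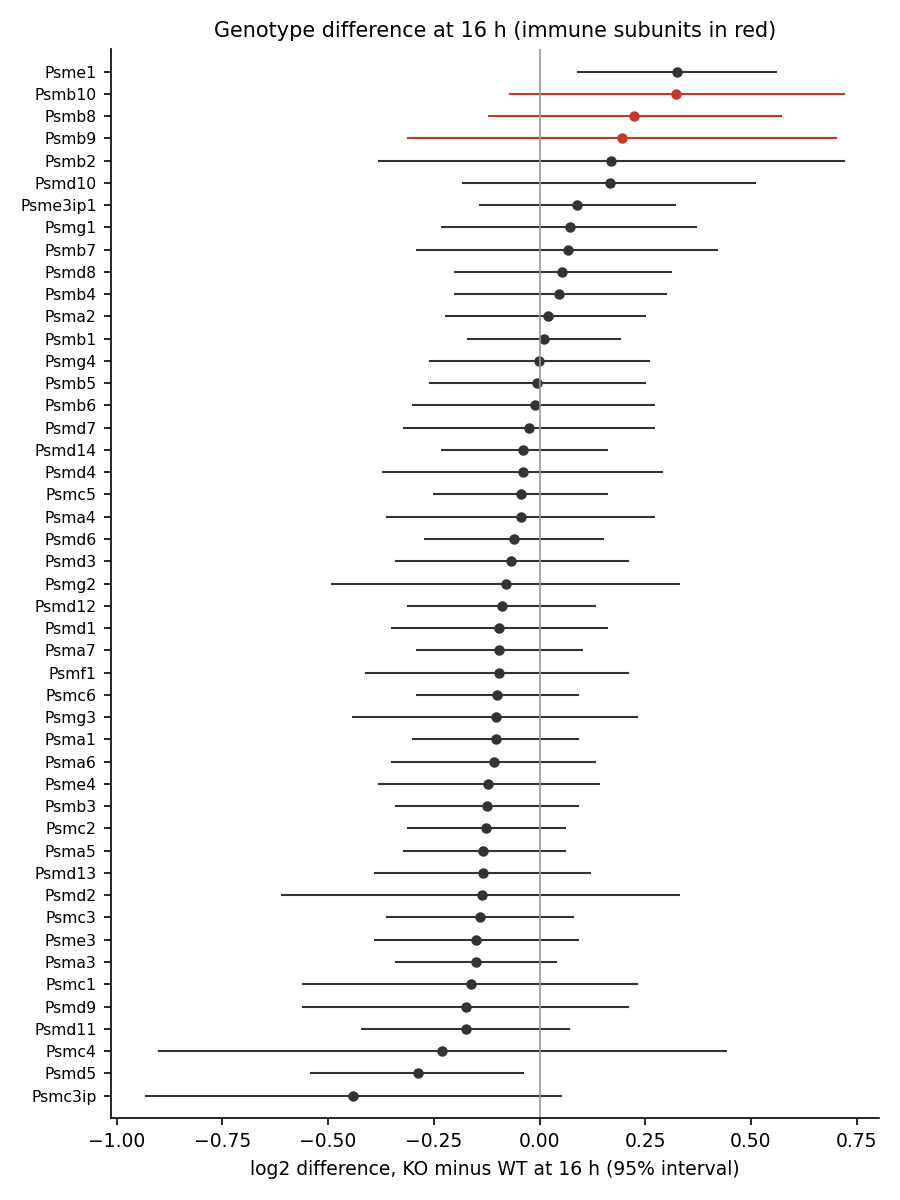
KO minus WT log2 difference at 16 h for the 47 tested members, sorted, with 95% intervals from the limma fit (3 arrays a group); immune subunits are red. Psme1 at the top (0.33) and Psmd5 near the bottom (-0.29) are the only members whose interval leaves out 0, and neither passed after adjustment.

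The change from 0 h in KO followed that in WT gene by gene. WT and KO changes are from separate arrays, and over the 47 members Pearson's r was 0.992, 0.978 and 0.983 at 3, 8 and 16 h, beside 0.763, 0.71 and 0.761 over all genes. The points share the array design and the brightness of the probe sets, and genes are not independent replicates. The fall of the 3 immune subunits widens the range of the members, and r without them is not given here. Every tested member was above the filter level on all 24 arrays, whereas other genes needed only 3. The r over members and that over all genes are thus not like for like. All 43 members called at 16 h in both genotypes had the same direction. The largest distance between the changes was 0.30, 0.35 and 0.43 at 3, 8 and 16 h.

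**Figure D4:**
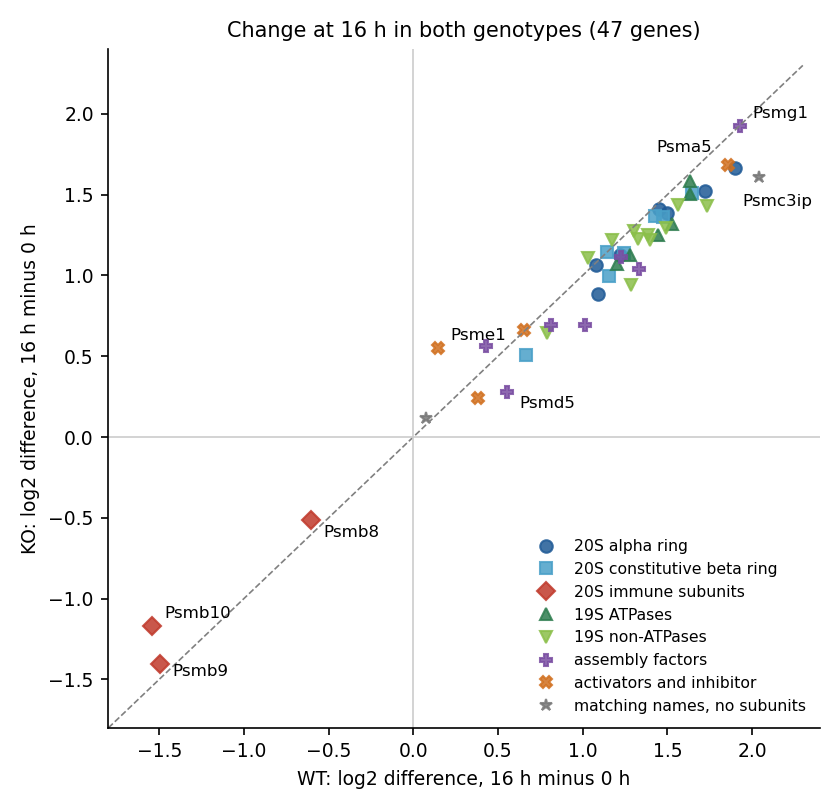
Log2 difference of 16 h minus 0 h in KO against WT for the 47 tested members, with a symbol for each role; the dashed line marks equal change. Psmb8, Psmb9 and Psmb10 lie at the lower left, Psmg1 (1.93 and 1.92) on the line at the upper right, and Psme1 (0.15 and 0.55) above it.

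Genes that work with the proteasome, from lists of names, were read beside the members. Of 9 measured partners 5, 6 and 6 were higher in WT at 3, 8 and 16 h and none lower. In KO 5, 5 and 7 were higher, and Akirin2, which carries the proteasome into the nucleus, was lower at 16 h (-0.62). Pomp, the chaperone that closes the 20S particle, changed by 0.50, 0.90 and 1.16 in WT. Usp14 and Uchl5, deubiquitinases that bind the 19S particle, changed by 1.58 and 1.40 at 16 h. Of 8 measured genes of ubiquitin loading and shuttling 6 were higher in WT at each time. Vcp, the unfoldase that hands substrates to the proteasome, changed by 0.81, 1.19 and 1.49. Ubqln2, a shuttle, was lower at 3 h (-0.45).

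Of 5 measured regulators of proteasome genes, Nfe2l1, the transcription factor that restores proteasome genes when activity drops, was higher in WT at 3 h (0.72, adjusted p = 4.16e-04). Its change was 0.32 and -0.07 at 8 and 16 h, neither called. Nfe2l2 was higher at 3 and 8 h (0.97 and 0.59). Ngly1, the enzyme that activates the Nfe2l1 protein, was lower at all times (-1.33, -0.84 and -0.78). Irf1, the interferon-induced factor known to act on the immune subunits' genes, was lower at all times too in WT (-1.07, -0.69 and -1.22), and in KO at 3 and 16 h (-1.12 and -1.42). Nlrc5, an activator of MHC class I genes, was lower at 3 h (-0.71 in WT, -0.98 in KO) and did not pass at 8 or 16 h. None of these lists' genes differed between KO and WT at 16 h.

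Among 11 genes of peptide supply to MHC class I, 2 were higher and 5 lower at 16 h in both genotypes. Tap1, head to head with Psmb9, had WT changes of -1.42 (adjusted p = 1.79e-04), -0.71 (adjusted p = 0.0509) and -1.36, and KO changes of -1.45, -0.50 and -1.42. Its change was smallest at 8 h, as for Psmb9. Tap2, the partner of Tap1 in the transporter, fell by 0.64, 0.62 and 0.86 in WT. H2-K1 and H2-D1, the class I heavy chains, fell by 0.41 and 0.52 at 16 h in WT. Erap1, which trims peptides in the endoplasmic reticulum, was higher throughout (1.29, 1.01 and 1.16), as was the chaperone Canx (0.89 at 16 h).

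Other probe sets of the members gave a check within the arrays. There were 49 further ones for 25 members. In WT 21, 26 and 25 of them were called in the same direction as the brightest probe set at 3, 8 and 16 h, and 20, 21 and 21 in KO. At 16 h calls went against a called brightest probe set for Psma1 and Psme4 in WT and for Psma1 in KO, and at no other time. Calls beside a brightest probe set that was not called were not counted in either direction. Of the 49, 26, 23 and 22 were not called in WT at 3, 8 and 16 h, and 26, 26 and 23 in KO. Psmb8 had a dimmer one that also fell at 3 h in WT (-1.59). None was called between KO and WT.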

How the data were processed

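The deposited values are log2 signals made by the authors with MAS5, per the submitters' processing notes (version not given). Trimmed means, 2% off each end, were 500.006 to 500.007 on all 24 arrays, and no further scaling was applied. Of 45101 probe sets 64 controls were dropped. Probe sets exceeding the 40th percentile of their array on 3 or more arrays were kept, and the brightest one with a single symbol stood for its gene (14318 genes). Gene names follow GEO's platform table, which can be old. The fit used limma 3.58.1 under R 4.3.3: 1 mean for each of the 8 groups, 16 residual degrees of freedom, a trended prior. Calls are at a Benjamini-Hochberg adjusted p below 0.05, and SE and 95% intervals come from this fit. Precision is limited by the number of arrays. The script was tested on simulated data.

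Values of all arrays are given for the immune subunits, their constitutive counterparts, Psme1 and Psme3. For members among the 6 largest called changes in either direction of a contrast, array values are given at the times described, except for Psma1, Psma6, Psma7, Psmb3, Psmc3, Psmc6 and Psmd13; Psmc5, Psmd14 and Psmf1 were added after their values were seen. Members and lists were chosen with earlier results of these data known. Alternatives were another scaling, filter, probe set choice, block, variance model or set of arrays, and leaving out each array. Promoter windows are RefSeq's. Protein sequences were not used here.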

Additional observations from a re-analysis of the deposited data

Results flagged for a closer look

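Psmd11, a lid subunit, drew attention because the arrays of KO and WT did not overlap at 8 h or at 16 h and lay in opposite order. It was picked from 47 members, of which 5 had no overlap at 8 h and 5 at 16 h. The share of all genes without overlap is not given here. At 8 h the KO arrays (14.01, 14.02 and 14.04) were above the WT arrays (13.99, 13.89 and 13.83), and at 16 h the KO arrays (14.09, 14.09 and 14.02) were below the WT arrays (14.40, 14.18 and 14.13). The KO minus WT difference was 0.12 at 8 h and -0.17 at 16 h, a shift of -0.29. The limma F-test of genotype by time did not pass (adjusted p = 1).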

How the results depend on the processing

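The counts of members called against 0 h kept within 1.5 times under all 11 alternatives and without any single array: 29 to 40 in WT at 3 h, 38 to 46 at 8 h, 42 to 45 at 16 h, and 29 to 35, 36 to 45 and 39 to 45 in KO. No member was called between KO and WT at a single time under any of them, nor on average over the times or in the F-test under the 10 that apply there. Of 249 calls of a member against 0 h, 208 passed under every alternative. Calls between successive times were not among these 249. The steps between times were less steady; the cause was not tested. From 3 to 8 h the WT count of 26 was 2 scaled to a common median, 11 without male-type arrays, 16 with only the groups compared and 17 to 27 without single arrays; the KO count of 25 was 2 with the median, 15 with only the groups compared and 16 to 25 without single arrays. From 8 to 16 h the WT count of 12 was 4 with quantile normalization, 1 with the median, 22 with the replicate block (21 higher and 1 lower), 1 without male-type arrays, 6 with only the groups compared and 7 to 14 without single arrays. The KO count of 4 was 1 with quantile normalization, 0 with the median, 2 with no filter, 8 with the 60th percentile filter, 2 with every probe set on its own, 11 with the replicate block, 9 with a random replicate block, 1 with no trend, 2 without male-type arrays, 0 without the 2 arrays of highest median, 0 with only the groups compared and 0 to 5 without single arrays. Male-type signals were on all 4 arrays of WT replicate 2 and on no other array, KO replicate 2 included. In WT this number thus kept to male-type material at every time. Whether same-numbered arrays come from 1 mouse was not tested. In 0 of 14 pairs of groups did the deviations of all 3 same-numbered pairs of arrays correlate above 0.1. The fit has no replicate block for that reason, but this cut-off does not decide whether a source is shared. All 42 correlations were nevertheless above 0 (0.02 to 0.37), the same-numbered array was the best match among 3 in 81 of 84 comparisons, and the random replicate block had a consensus correlation of 0.208. Neither block changed any other count by over 1.5 times.

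Scaling to a common median moved the median of all genes at 3 h in WT from -0.14 to 0.10. The members' median then was 0.82 at 3 h, 1.11 at 8 h, 1.37 at 16 h, 0.32 from 3 to 8 h and 0.19 from 8 to 16 h in WT, and 0.65 at 3 h in KO. With quantile normalization it was 1.21 at 16 h and 0.14 from 8 to 16 h in WT. Without male-type arrays it was 0.89 at 8 h, 1.21 at 16 h and 0.20 from 8 to 16 h in WT. The averaged KO minus WT difference of Psmb10, which was not called, turned from 0.076 to -0.023 without the male-type arrays. Refits without the male-type arrays or a single array rest on 2 arrays in the groups affected, which limits what they show.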

Other observations

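Among the tested members, 6 had the same replicate number as their highest array in all 8 groups, beside 4.04% of all genes (578). They were Psmc1, Psmd1, Psmd2, Psmd9 and Psmd10 with replicate 3 and Psmc4 with replicate 2. Psmb10, Psmd2 and Psmd10 had replicate 2, and Psma4 and Psma6 replicate 3, as their lowest array in all 8 groups. For the lowest array the share of all genes is not given here, so nothing particular to these members follows. The pattern was noticed after the values were seen and was not tested.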
